A study of Mus musculus with 7 samples.

Results

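The 9 genes F3, F7, F10, Tfpi, F13a1, Plau, Plaur, Serpinb2 and Thbs1 act in blood coagulation, in the removal of clots or in the matrix around them. They were taken by exact match of the gene symbol and all 9 were found among the 23361 genes quantified in each library. RNASeq had been carried out on macrophages of wild-type BALB/cJ mice after the left sciatic nerve was cut and immediately repaired inside a conduit. Cells were sorted from the regenerative bridge as Lin-F4/80+CD14+CD11b+CD16/32+, where Lin- stands for the exclusion of granulocytes, eosinophils, B and T lymphocytes, red blood cells and fibroblasts. Day 5 after repair was covered by 3 libraries, and days 14 and 28 by 2 each. For those later days the study's legends state a larger group size than was analysed here. All groups shared the strain, the injury, the conduit and the sort, and neither uninjured nerve nor blood monocytes were part of the time course. The legends count mice, but whether each library stems from 1 mouse or a pool, and the age and sex of these mice, were not given in the sources used here.

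The extrinsic pathway of clotting starts when tissue factor, a membrane protein encoded by F3, binds factor VII (F7) and the complex activates factor X (F10). Tissue factor pathway inhibitor (Tfpi) blocks that complex, and factor XIII, whose catalytic subunit is encoded by F13a1, cross-links the fibrin that forms. Fibrin is dissolved by plasmin, which urokinase (Plau) generates from plasminogen at the cell surface while bound to its receptor (Plaur), and plasminogen activator inhibitor 2 (Serpinb2) inhibits urokinase. Thrombospondin 1 (Thbs1) is a secreted matrix glycoprotein, stored also in platelets, that binds fibrin and the receptors CD36 and CD47. Outside the liver, macrophages are a known source of several of these proteins, and fibrin forms the early scaffold of a nerve bridge.

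Values are FPKM, the fragments of a gene adjusted for transcript length and library size, and fragments are the reads assigned to a gene. Libraries held 18027190 to 35247116 fragments. A gene was called DE at an adjusted p under 0.05 in edgeR's quasi-likelihood test, fitted over 12858 genes with all 7 libraries, and stringent DE when the mean FPKM also differed 2-fold and reached 5 at 1 of the time points. A gene is given as called or not called by that test with all 7 libraries, unless another setting is named. Both comparisons with day 5 share its libraries, and the same holds for days 14 and 28, so the comparisons are not independent of each other. All of 8 macrophage genes were detected in every library, among them those of the sort markers F4/80 (listed as Emr1), CD11b (Itgam), CD14 (Cd14) and CD16 (Fcgr3). Their summed FPKM was 5741 to 6205 at day 5, 4113 to 4807 at day 14 and 3901 to 4341 at day 28. The mean of Cd14 alone was 2766 at day 5 and 1616 at day 28. Between these days, edgeR called Cd14 and Emr1 lower, while Itgam, Fcgr3, Fcgr2b, Csf1r, Cd68 and Mertk were not called. The pair of day 14 libraries differed from each other more than any other same-day pair, with a chi-square per degree of freedom of 62.0 against 15.5 to 21.7 between day 5 libraries and 47.1 between the day 28 libraries.

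The stretch before the transcription start is shown for 5 of the genes. F7 and F10 are shown because they lie next to each other on the chromosome. F3, Plaur and Serpinb2 are those of the 7 genes searched in which the AP-1 motif was found. Each sequence is from RefSeq on GRCm38.p6, reads 5′ to 3′ on the strand of the gene and ends at the base before the annotated start. Capitals mark matches on either strand to 6 short motifs. These were TGANTCA (AP-1), GGNNTTTCC (NF-kB), GCGNGGGCG (EGR), TTGCNNAA (C/EBP), GAGGAAG (PU.1) and ACGTG (the core of the hypoxia response element).
F3, chr3:121723287-121723536, plus strand: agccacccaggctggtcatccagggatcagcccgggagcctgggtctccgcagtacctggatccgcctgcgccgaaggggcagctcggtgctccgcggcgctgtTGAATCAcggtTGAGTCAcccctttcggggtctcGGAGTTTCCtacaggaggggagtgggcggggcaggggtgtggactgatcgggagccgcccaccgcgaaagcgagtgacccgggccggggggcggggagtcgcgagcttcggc
F7, chr8:13025784-13026033, plus strand: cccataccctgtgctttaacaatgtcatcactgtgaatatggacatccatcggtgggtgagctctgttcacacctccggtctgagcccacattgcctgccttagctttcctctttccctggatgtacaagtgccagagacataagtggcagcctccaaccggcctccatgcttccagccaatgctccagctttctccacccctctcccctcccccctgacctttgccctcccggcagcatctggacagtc
F10, chr8:13037058-13037307, plus strand: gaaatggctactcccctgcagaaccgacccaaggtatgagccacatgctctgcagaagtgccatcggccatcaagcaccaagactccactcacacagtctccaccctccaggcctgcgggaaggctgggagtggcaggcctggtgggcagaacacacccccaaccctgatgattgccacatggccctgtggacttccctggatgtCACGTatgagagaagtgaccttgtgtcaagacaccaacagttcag
Plaur, chr7:24462233-24462482, plus strand: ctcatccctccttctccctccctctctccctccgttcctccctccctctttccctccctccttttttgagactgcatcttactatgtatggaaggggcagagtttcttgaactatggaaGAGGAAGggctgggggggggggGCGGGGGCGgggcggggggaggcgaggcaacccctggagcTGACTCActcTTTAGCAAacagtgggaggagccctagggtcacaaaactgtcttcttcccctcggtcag
Serpinb2, the first of 2 annotated starts, chr1:107511173-107511422, plus strand: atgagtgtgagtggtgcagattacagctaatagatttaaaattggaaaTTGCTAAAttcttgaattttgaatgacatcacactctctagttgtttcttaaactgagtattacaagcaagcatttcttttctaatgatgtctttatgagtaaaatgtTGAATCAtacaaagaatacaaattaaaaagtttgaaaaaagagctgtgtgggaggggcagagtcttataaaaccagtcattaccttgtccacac
In F3, AP-1 matches begin at positions -146 and -135, where -1 is the last base before the start, and an NF-kB match begins at -112. In Plaur an AP-1 match begins at -69, and PU.1, EGR and C/EBP matches begin at -131, -109 and -59. Serpinb2 holds an AP-1 match that begins at -94 and a C/EBP match that begins at -202 from the first start. F10 holds the hypoxia core, which begins at -45, and the F7 stretch holds none of the 6 motifs. Among all 32851 promoter stretches of this length, 6.75% held the AP-1 motif, 4.93% the NF-kB motif, 4.70% the EGR motif, 9.56% the C/EBP motif, 10.6% the PU.1 motif and 16.6% the hypoxia core. No matches overlapped in the 5 stretches shown. Stretches were available for 7 of the 9 genes. Plau and Thbs1 had none and were not searched for motifs. F13a1 and Tfpi, which were searched but are not shown, have 2 starts each. A PU.1 match lies before the first start of F13a1 and the second of Tfpi, an NF-kB match lies before the second start of F13a1, and the first start of Tfpi has no match.

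All but F3 and Tfpi were abundant in these cells, and the order of the 9 genes changed with time. Plaur was the highest and Tfpi the lowest of the 9 in all 7 libraries. At day 5, Thbs1 was second to Plaur in all 3 libraries and F7 was seventh of 9. At day 28, F7 was above Thbs1 and F13a1 in both libraries, and Plaur was followed by Plau and F10, whose libraries overlapped each other and lay below both Plaur values. Among the 12858 genes tested, the mean FPKM of Plaur lay at percentile 97.4, Plau and Thbs1 at 96.3, F10 at 94.7, F13a1 at 94.1, F7 at 90.8 and Serpinb2 at 89.5, with F3 at 49.2 and Tfpi at 35.5.

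**Figure D1:**
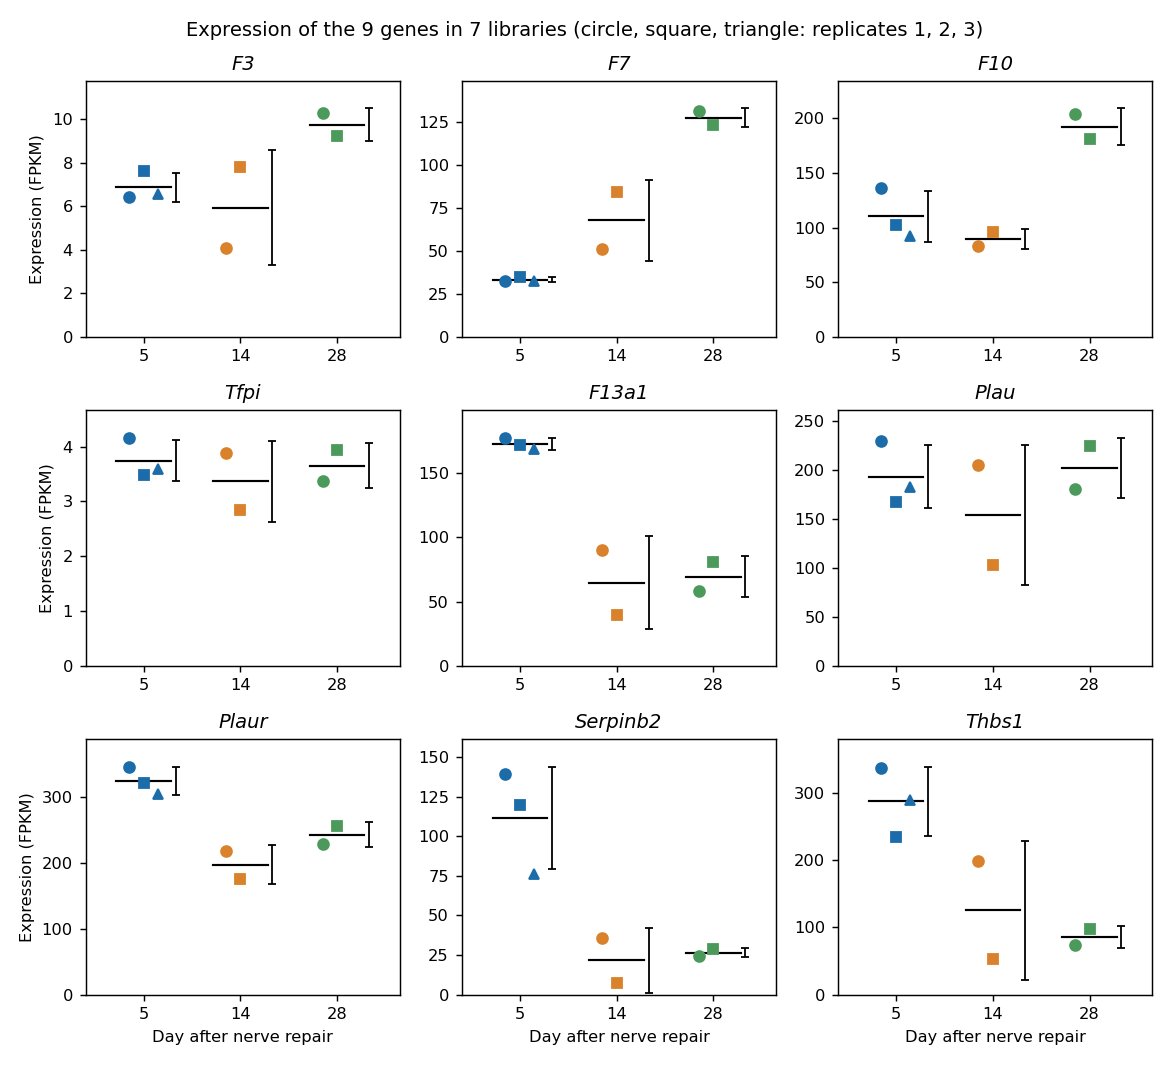
Expression (FPKM, linear axis from 0) of the 9 genes in each of the 7 libraries, by day after nerve repair. Symbols are libraries, horizontal lines are means and whiskers are ± 1 SD (n = 3, 2 and 2). F7 is higher and F13a1, Serpinb2 and Thbs1 are lower in both day 28 libraries than in any day 5 library, while the 2 day 14 libraries lie apart for most genes.

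Between days 5 and 14, F7 rose while F13a1, Plaur and Serpinb2 fell. These 4 calls among 9 genes compare with 4.78% of all genes tested, 2.84% called higher and 1.94% called lower. F7, F13a1 and Serpinb2 were stringent DE, against 1.17% of all genes. The median log2 fold change of the 9 genes was -0.32, and that of all genes was 0.027. Thbs1 also had no overlap between its day 5 and day 14 libraries but was not called, which made 5 of the 9 at an unadjusted p under 0.05, against 24% of all genes. By day 28, F7 and F10 were higher than at day 5 and F13a1, Serpinb2 and Thbs1 were lower. These 5 calls compare with 15.2% of all genes, 7.74% called higher and 7.51% called lower. All but F10 were stringent DE, against 3.52% of all genes. The median log2 fold change was -0.10, and 0.033 over all genes. In bulk RNA, a lower share of cells that express a gene and less of its RNA per cell cannot be told apart.

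Between days 14 and 28 none of the 9 genes was called with edgeR, where 0.0622% of all genes were DE and 0.0467% stringent DE. At an unadjusted p under 0.05 there were 3 of the 9, namely F3, F7 and F10, against 12.2% of all genes. DESeq2 called 2, F7 and F10, and 2.58% of all genes. The median log2 fold change of the 9 was 0.31, against 0.0093 over all genes. Without day 14 replicate 2, edgeR called 4 of the 9 genes between these days (F3, F7, F10 and Thbs1) and 4.7% of all genes. Without day 14 replicate 1 it called Serpinb2 and 0.248% of all genes.

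**Figure D2:**
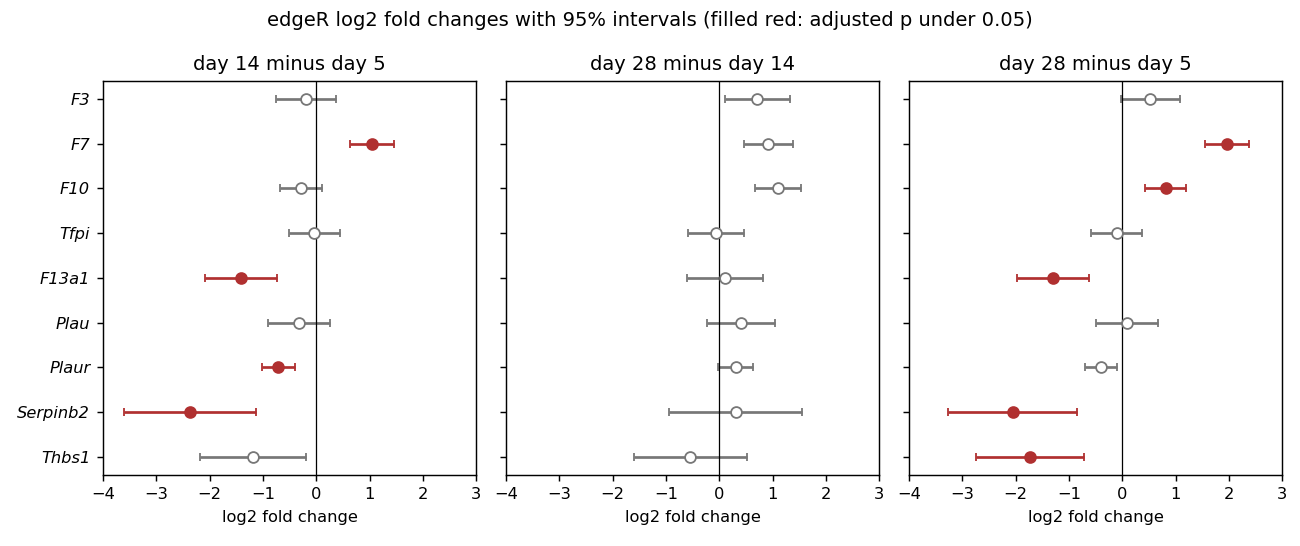
Log2 fold change (later minus earlier day) of the 9 genes in 3 comparisons, from edgeR, with 95% intervals. Filled red points have an adjusted p under 0.05: 4 genes for day 14 minus day 5, none for day 28 minus day 14 and 5 for day 28 minus day 5.

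F7, the protease that circulates as a zymogen and becomes active on tissue factor, had the largest rise of the 9 genes. Its FPKM was 32.1, 34.9 and 32.4 in the day 5 libraries, 50.9 and 84.2 at day 14, and 131 and 123 at day 28. The libraries of the 3 days did not overlap, and each later day was higher. The means were 33.1 ± 1.50 (SD, n = 3), 67.6 ± 23.6 (SD, n = 2) and 127 ± 5.50 (SD, n = 2), each library holding 1178 to 8405 fragments of the gene. From day 5 to day 28, F7 rose 3.84-fold (log2 fold change 1.96, SE 0.18, edgeR adjusted p = 7.16e-04), and this call held under all 15 alternative settings. By day 14 it had risen 2.04-fold (log2 1.04, SE 0.18, edgeR adjusted p = 0.0210). The day 14 call was lost without any 1 of the day 5 libraries (edgeR adjusted p = 0.0696 to 0.0845), and the log2 fold change was 0.63 without day 14 replicate 2 and 1.36 without day 14 replicate 1. From day 14 to day 28 the log2 fold change was 0.91 (SE 0.20, edgeR adjusted p = 0.123), and the adjusted p was 5.80e-04 without day 14 replicate 2.

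F10, the protease that converts prothrombin to thrombin, followed another course. Its FPKM was 136, 102 and 92.3 at day 5, 83.1 and 95.6 at day 14, and 204 and 181 at day 28. Days 5 and 14 overlapped, and both day 28 libraries were above the other 5. The means were 110 ± 23.0 (SD, n = 3), 89.4 ± 8.84 (SD, n = 2) and 193 ± 16.6 (SD, n = 2). F10 rose 1.75-fold from day 5 to day 28 (log2 0.81, SE 0.17, edgeR adjusted p = 0.0146), a call that was lost without day 5 replicate 2, day 5 replicate 3 or day 28 replicate 1 (edgeR adjusted p = 0.0515 to 0.108). Its log2 fold change from day 5 to day 14 was -0.29 (SE 0.17, edgeR adjusted p = 0.345). From day 14 to day 28 it was 1.10 (SE 0.19, edgeR adjusted p = 0.0742). That adjusted p was 0.00871 without day 14 replicate 2.

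F3, the receptor that starts clotting, was expressed at a low level. Its FPKM was 6.42, 7.63 and 6.54 at day 5, 4.06 and 7.79 at day 14, and 10.3 and 9.21 at day 28. Both day 28 libraries were above the other 5, and the day 14 libraries spanned those of day 5. The means were 6.86 ± 0.665 (SD, n = 3), 5.92 ± 2.64 (SD, n = 2) and 9.74 ± 0.749 (SD, n = 2), from 123 to 665 fragments per library. The log2 fold change from day 5 to day 28 was 0.52 (SE 0.24, edgeR adjusted p = 0.179), and the adjusted p was 0.0379 to 0.0420 without either of the day 14 libraries. F3 was not called between days 5 and 14 (log2 -0.19, SE 0.25, edgeR adjusted p = 0.685) or days 14 and 28 (log2 0.71, SE 0.27, edgeR adjusted p = 0.343, 0.0111 without day 14 replicate 2).

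Tfpi, the inhibitor of the tissue factor complex, was the lowest of the 9 and was called at no time. Its FPKM was 4.17, 3.48 and 3.59 at day 5, 3.89 and 2.84 at day 14, and 3.37 and 3.94 at day 28. The libraries of the 3 days overlapped throughout. Between days 5 and 28 the log2 fold change was -0.10 with a 95% interval of -0.58 to 0.37 (edgeR adjusted p = 0.779), and between days 5 and 14 it was -0.04 with an interval of -0.52 to 0.44 (edgeR adjusted p = 0.938), so that changes within these bounds were not resolved at 131 to 251 fragments per library. The ratio of Tfpi to F3 within a library, in FPKM, was 0.457 to 0.649 at day 5, 0.959 and 0.364 at day 14, and 0.328 and 0.428 at day 28. Both day 28 ratios were below all 3 of day 5, while the day 14 ratios were the highest of the 7 and one of the lowest. The ratio of F7 to F3 was 4.57 to 5.01 at day 5, 12.6 and 10.8 at day 14, and 12.8 and 13.4 at day 28, with no overlap between day 5 and the later days. These ratios divide genes measured in the same library and were not tested.

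**Figure D3:**
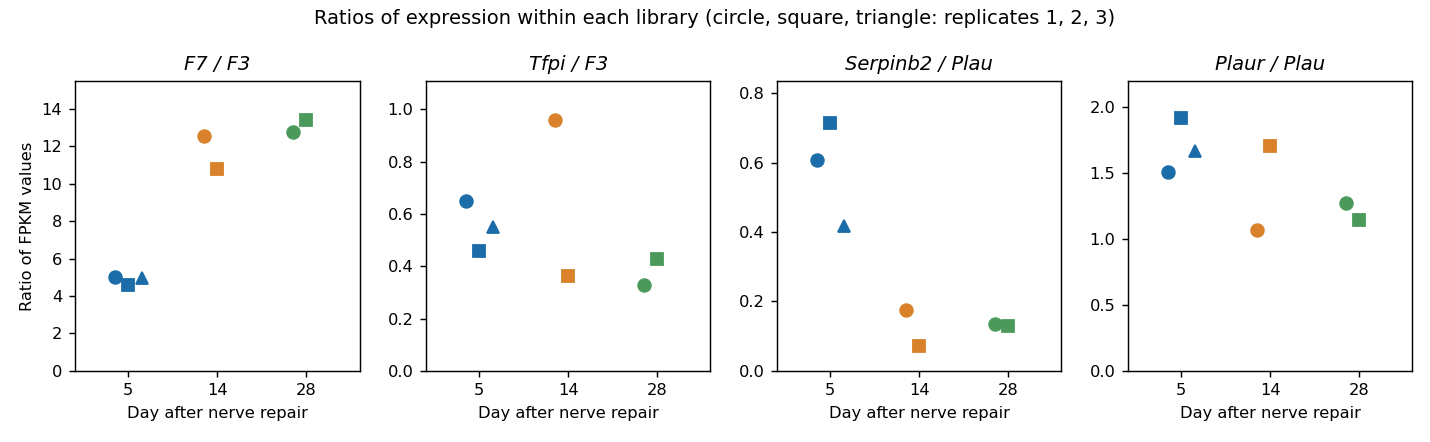
Ratio of the FPKM values of a pair of genes within each library, by day after nerve repair, with linear axes from 0. The F7 to F3 ratio is at least 10.8 in all later libraries and at most 5.01 at day 5, and the Serpinb2 to Plau ratio is at most 0.175 in the later libraries and at least 0.416 at day 5.

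F13a1, the subunit of factor XIII that cross-links fibrin, fell by day 14. Its FPKM was 178, 172 and 169 at day 5, 90.3 and 39.2 at day 14, and 58.0 and 80.7 at day 28. All 3 day 5 libraries were above all later ones, and the day 28 libraries lay between the 2 of day 14. The means were 173 ± 4.56 (SD, n = 3), 64.7 ± 36.1 (SD, n = 2) and 69.4 ± 16.1 (SD, n = 2), from 3236 to 15920 fragments. It fell 2.67-fold from day 5 to day 14 (log2 -1.41, SE 0.30, edgeR adjusted p = 0.0366) and was 2.49-fold lower at day 28 than at day 5 (log2 -1.30, SE 0.30, edgeR adjusted p = 0.0209). Without any 1 of the day 5 or day 28 libraries both calls were lost, at adjusted p = 0.0569 to 0.105 for day 14 and 0.0531 to 0.168 for day 28 (edgeR). The log2 fold change to day 14 was -0.93 without day 14 replicate 2 and -2.12 without day 14 replicate 1. Between days 14 and 28 it was 0.11 (SE 0.31, edgeR adjusted p = 0.921).

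Of the urokinase system, the receptor Plaur and the inhibitor Serpinb2 were called lower at day 14 than at day 5. The protease was called in no comparison. Plau, urokinase itself, had an FPKM of 229, 167 and 182.5 at day 5, 205 and 103 at day 14, and 180 and 224 at day 28. Day 14 replicate 2 was the lowest library, and the other 6 overlapped across days. The log2 fold change from day 5 to day 28 was 0.08, with a 95% interval of -0.50 to 0.66 (edgeR adjusted p = 0.865). The value from day 5 to day 14 was -0.32 (SE 0.26, edgeR adjusted p = 0.492). Without day 14 replicate 1, Plau was called lower at day 14 (log2 -0.89, edgeR adjusted p = 0.0141). From day 14 to day 28 its log2 fold change was 0.40 (SE 0.28, edgeR adjusted p = 0.613).

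Plaur, the receptor that holds urokinase at the cell surface, had an FPKM of 346, 322 and 305 at day 5, 218 and 176 at day 14, and 229 and 256 at day 28. The 3 days did not overlap, with day 5 highest and day 14 lowest. The means were 324 ± 20.8 (SD, n = 3), 197 ± 29.7 (SD, n = 2) and 243 ± 18.9 (SD, n = 2). Plaur fell 1.64-fold from day 5 to day 14 (log2 -0.71, SE 0.13, edgeR adjusted p = 0.0253). The call was lost without any 1 of the day 5 libraries or day 14 replicate 2 (edgeR adjusted p = 0.0771 to 0.0875). Between days 5 and 28 the log2 fold change was -0.40 (95% interval -0.70 to -0.11, edgeR adjusted p = 0.0694), and the adjusted p was 0.0259 to 0.0269 without either of the day 14 libraries. DESeq2 called Plaur between these days, as it did 19.3% of all genes. From day 14 to day 28 its log2 fold change was 0.30 (SE 0.14, edgeR adjusted p = 0.431).

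Serpinb2, an inhibitor of urokinase that is also found inside the cell, had the largest fall of the 9. Its FPKM was 139, 119 and 75.9 at day 5, 36.0 and 7.31 at day 14, and 24.5 and 28.8 at day 28. All day 5 libraries were above all later ones, and the 2 of day 14 lay on either side of those of day 28. The means were 111 ± 32.4 (SD, n = 3), 21.6 ± 20.3 (SD, n = 2) and 26.6 ± 3.04 (SD, n = 2), from 293 to 6029 fragments. Serpinb2 fell 5.15-fold from day 5 to day 14 (log2 -2.37, SE 0.55, edgeR adjusted p = 0.0436) and was 4.19-fold lower at day 28 than at day 5 (log2 -2.06, SE 0.53, edgeR adjusted p = 0.0323). The first call was lost without any 1 of the day 5 or day 28 libraries (edgeR adjusted p = 0.0768 to 0.124), and the log2 fold change was -1.62 without day 14 replicate 2 and -3.91 without day 14 replicate 1. The second was lost without day 5 replicate 1 or 2 or either of the day 28 libraries (edgeR adjusted p = 0.0803 to 0.201). Between days 14 and 28 the log2 fold change was 0.31 (SE 0.55, edgeR adjusted p = 0.863, 0.0470 without day 14 replicate 1). Serpinb10 overlaps Serpinb2 on the same strand and had at most 41 fragments in a library.

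Within a library, Serpinb2 was 0.416 to 0.713 of Plau at day 5, 0.175 and 0.0709 of it at day 14, and 0.136 and 0.128 at day 28, in FPKM. The day 5 ratios were all above the later ones. The ratio of Plaur to Plau was 1.51, 1.92 and 1.67 at day 5, 1.07 and 1.71 at day 14, and 1.27 and 1.14 at day 28, and day 14 replicate 2 lay within the range of day 5.

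Thbs1, the matrix glycoprotein, was the second highest of the 9 at day 5. Its FPKM was 337, 234 and 289.7 at day 5, 198 and 52.4 at day 14, and 74.3 and 97.0 at day 28. All day 5 libraries were above the later ones, and the day 14 libraries differed more than those of any other day. The means were 287 ± 51.8 (SD, n = 3), 125 ± 103 (SD, n = 2) and 85.6 ± 16.0 (SD, n = 2), from 6595 to 46037 fragments. Thbs1 was 3.35-fold lower at day 28 than at day 5 (log2 -1.73, SE 0.45, edgeR adjusted p = 0.0331), a call lost without any 1 of the day 5 or day 28 libraries (edgeR adjusted p = 0.0614 to 0.213). Its log2 fold change from day 5 to day 14 was -1.19 (SE 0.44, edgeR adjusted p = 0.143). It was -0.53 without day 14 replicate 2 and -2.44 without day 14 replicate 1 (edgeR adjusted p = 1.80e-04). From day 14 to day 28 it was -0.54 (SE 0.47, edgeR adjusted p = 0.682), and the adjusted p was 0.00827 without day 14 replicate 2.

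The 2 day 14 libraries placed the 9 genes differently. In day 14 replicate 1 the value was nearer to the day 5 mean for 5 genes and nearer to the day 28 mean for 4. In day 14 replicate 2 it was nearer to the day 28 mean for 6 genes and to the day 5 mean for 3. Distance was taken in log2(FPKM + 1). For Tfpi and Plau, which changed sides, the means of days 5 and 28 were close (3.75 and 3.65 FPKM, 193 and 202 FPKM), so the nearer mean says little. Some values lay outside the range between the means, among them F10 and Plaur, below both means in both libraries. Summed FPKM of 4 monocyte genes was 336.5 to 506.6 at day 5, 399 and 173 in day 14 replicates 1 and 2, and 141 to 206 at day 28, and Ly6c2 and Plac8 made up most of this difference. Summed FPKM of 7 fibroblast genes, mostly collagens, was 28.8 to 74.1 at day 5, 223 and 81.2 at day 14, and 35.6 to 57.0 at day 28, with Lum at 0 in 2 day 5 libraries. The part of these cells in the day 14 values was not tested.

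Platelets carry thrombospondin 1 and factor XIII, and the summed FPKM of 9 platelet genes was 1482 to 2123 at day 5, 412 to 524 at day 14 and 268 to 346 at day 28. Nearly all of the sum was Pf4, followed by Ppbp. The platelet receptor genes Gp1ba, Gp1bb, Gp9, Gp6 and Itga2b were between 0 and 1.02 FPKM in all 7 libraries, with Gp9 and Gp6 at 0 in some, and Treml1 was between 0.443 and 3.15. Between days 5 and 28, edgeR called Pf4 and Ppbp lower and Treml1 higher (log2 1.84, SE 0.54, edgeR adjusted p = 0.0489). Gp1ba had a log2 fold change of 2.7 (edgeR adjusted p = 0.0597) and was not called, nor were Itga2b and Tubb1. Gp1bb, Gp9 and Gp6 were not tested. Summed FPKM of 7 neutrophil genes was 239 to 275 at day 5, 495 to 516 at day 14 and 103 to 252 at day 28, of which S100a8 and S100a9 made up nearly all, and Elane was at 0 throughout. T cell genes summed to 3.93 to 13.8, B cell genes to 4.42 to 10.8, mast cell and eosinophil genes to at most 1.27 and Schwann cell genes to 10.8 to 20.1, the last mostly Mbp.

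F7 and F10 lie in tandem on the plus strand of chromosome 8 in GENCODE genes on GRCm38, F7 at chr8:13026034-13035809 and F10 at chr8:13037308-13056676, with 1498 bases between them. The other neighbours were looked up after the values of F7 were seen. Mcf2l, which encodes a guanine nucleotide exchange factor, ends 5128 bases before F7 on the same strand. Its FPKM was 1.06, 1.05 and 0.760 at day 5, 1.57 and 3.31 at day 14, and 6.53 and 5.83 at day 28, with no overlap between days. It rose 6.44-fold from day 5 to day 28 (log2 2.70, SE 0.28, edgeR adjusted p = 0.00101). From day 5 to day 14 the log2 fold change was 1.36 (SE 0.29, edgeR adjusted p = 0.0366), a call lost without each library other than day 14 replicate 1 (highest edgeR adjusted p = 0.168). Proz, which encodes the anticoagulant cofactor protein Z, starts 4237 bases after F10 and had a day 28 minus day 5 log2 fold change of 0.84 (SE 0.39, edgeR adjusted p = 0.172). Pcid2 and Cul4a, the next genes on that side, had log2 fold changes of 0.02 and 0.05 (edgeR adjusted p = 0.930 and 0.828). Whether strand was used in counting was not given in the sources used here, and antisense genes overlap Mcf2l.

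**Figure D4:**
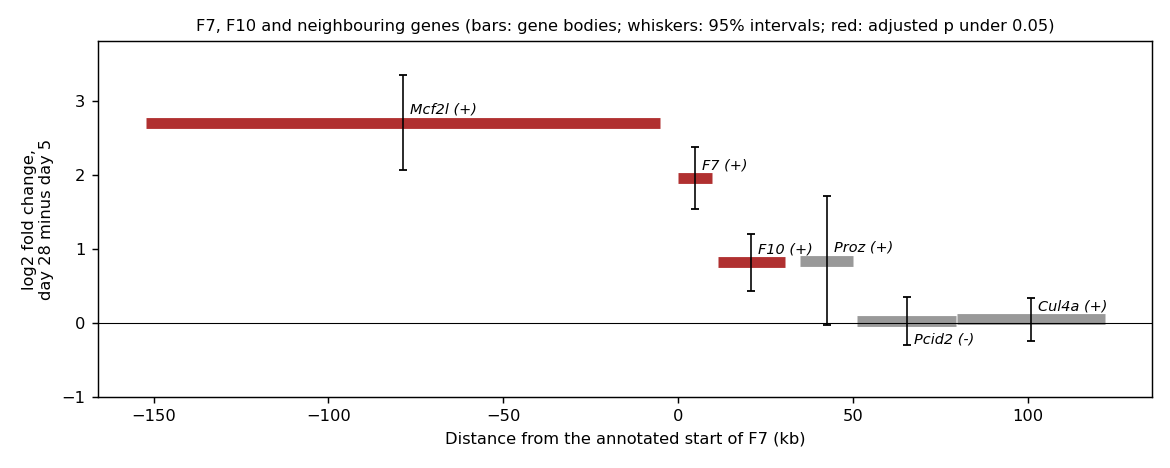
Log2 fold change (day 28 minus day 5) of F7, F10 and 4 neighbouring genes against distance from the annotated start of F7 in kb. Horizontal bars span the gene bodies, whiskers are 95% intervals and red marks an adjusted p under 0.05. Mcf2l, F7 and F10 are red, at 2.70, 1.96 and 0.81.

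The remaining 7 genes lie on separate chromosomes or far apart. F3 is at chr3:121723537-121735048, Tfpi at chr2:84432855-84476775, F13a1 at chr13:36867178-37050244, Plau at chr14:20836660-20843385, Plaur at chr7:24462484-24475968, Serpinb2 at chr1:107511423-107535478 and Thbs1 at chr2:118111876-118127133. Antisense genes overlap exons of F13a1, and a noncoding gene on the opposite strand overlaps an exon of Thbs1. Without strand, their reads cannot be told apart from those of F13a1 and Thbs1.

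A list of 47 other genes of coagulation and fibrinolysis was examined, of which 27 passed the expression filter. Between days 5 and 14, edgeR called 2 of the 27, Mcfd2 and S100a10, both lower, against 4.78% of all genes, and 13 had an unadjusted p under 0.05, against 24%. Between days 14 and 28 it called 0 of 27, with 6 at an unadjusted p under 0.05 (12.2% of all genes), and DESeq2 called 1, Procr (2.58% of all genes). Between days 5 and 28 it called 9, of which 4 were higher and 5 lower, against the 15.2% of all genes, and Thbd and Procr were stringent DE. The median log2 fold change of the 27 was 0.021, 0.19 and 0.18 in the 3 comparisons. Of the 9 calls between days 5 and 28, Procr held under all 15 alternative settings. Without day 28 replicate 1, Procr was the only 1 of the 9 that was called, and 4 or 5 of the 9 were called without any 1 of the day 5 libraries or day 28 replicate 2.

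**Figure D5:**
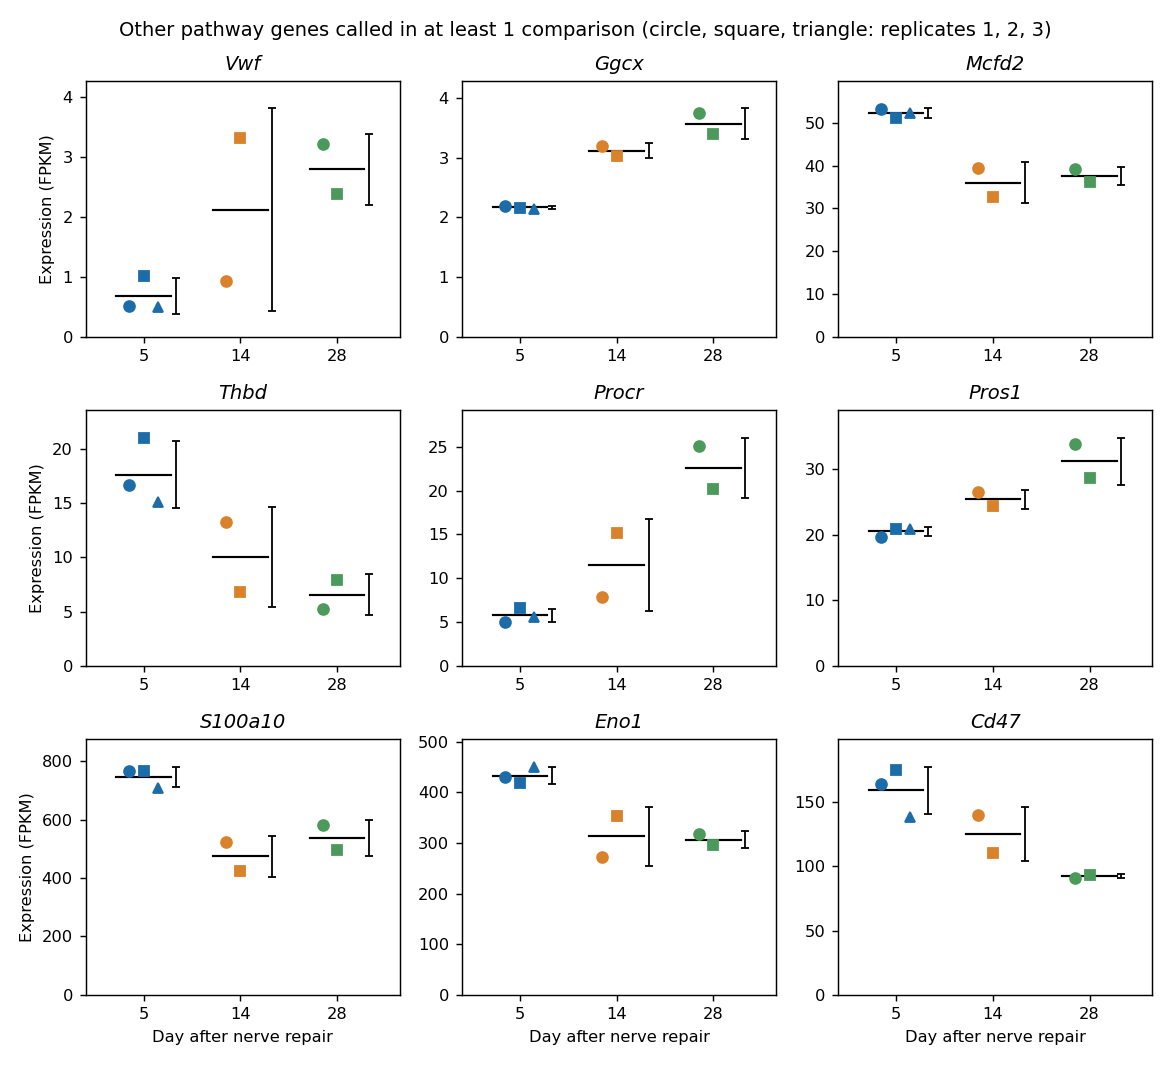
Expression (FPKM, linear axis from 0) of the 9 other pathway genes called in at least 1 comparison, by day after nerve repair. Symbols are libraries, lines are means and whiskers are ± 1 SD (n = 3, 2 and 2). Vwf, Ggcx, Procr and Pros1 are higher and Mcfd2, Thbd, S100a10, Eno1 and Cd47 lower in both day 28 libraries than at day 5.

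Of 13 other clotting factor and fibrinogen genes, 10 did not pass the filter, each with at most 37 fragments in a library, among them prothrombin (F2, at most 8 fragments) and the 3 fibrinogen chains. F5, the cofactor of factor X, had a mean FPKM of 1.78, 2.98 and 2.33 at days 5, 14 and 28 and was not called (edgeR adjusted p = 0.109 for day 14 and 0.314 for day 28, each against day 5). Vwf, the carrier of factor VIII that endothelium and megakaryocytes make, had an FPKM of 0.509, 1.02 and 0.502 at day 5, 0.928 and 3.31 at day 14, and 3.21 and 2.37 at day 28. It was higher at day 28 than at day 5 (log2 2.07, SE 0.47, edgeR adjusted p = 0.0211), a call lost without day 5 replicate 1 or 3 or either of the day 28 libraries (highest edgeR adjusted p = 0.148). The sum of 7 endothelial genes, Vwf included, was 15.6 to 27.6 FPKM at day 5. It was 10.8 to 14.96 at day 14 and 6.12 to 10.4 at day 28. Tek, Cldn5 and Emcn were at 0 in some libraries. Most of the day 5 sum was Kdr and Pecam1, which edgeR called lower at day 28 than at day 5. Mean FPKM went from 10.96 to 1.33 for Kdr and from 8.12 to 2.27 for Pecam1. Tek, like Vwf, was called higher between these days (log2 4.63, SE 1.06, edgeR adjusted p = 0.0208), with at most 46 fragments in a library. Cdh5 and Cldn5 were not called, and Emcn was not tested. Ggcx, the vitamin K-dependent carboxylase that factors VII and X need, had a mean FPKM of 2.17 at day 5, 3.11 at day 14 and 3.57 at day 28 and was higher at day 28 (log2 0.74, SE 0.16, edgeR adjusted p = 0.0191). The Ggcx call was lost without any 1 of the day 5 libraries or day 28 replicate 1 (highest edgeR adjusted p = 0.117). Vkorc1, which regenerates vitamin K, had means of 28.7, 34.2 and 29.7 FPKM and was not called. Mcfd2, part of the export receptor for factors V and VIII, fell from 52.3 to 36.0 FPKM by day 14 (log2 -0.53, SE 0.12, edgeR adjusted p = 0.0388) and was at 37.6 at day 28 (log2 -0.46 against day 5, SE 0.12, edgeR adjusted p = 0.0301). The Mcfd2 calls were lost without each library other than day 14 replicate 1 (day 14, highest edgeR adjusted p = 0.171) and without any 1 of the day 5 or day 28 libraries (day 28, highest edgeR adjusted p = 0.122).

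Of 10 anticoagulant genes besides Tfpi, 5 were tested, and 2 were called higher and 1 lower between days 5 and 28. Of all genes tested, 15.2% were called between these days, 7.74% higher and 7.51% lower. Procr, the endothelial receptor for protein C, had an FPKM of 5.04, 6.60 and 5.57 at day 5, 7.80 and 15.2 at day 14, and 25.1 and 20.2 at day 28. The 3 days did not overlap, and the log2 fold change from day 5 to day 28 was 2.00 (SE 0.26, edgeR adjusted p = 0.00228). Pros1, the cofactor protein S, had an FPKM of 19.6 to 20.9 at day 5, 26.4 and 24.4 at day 14, and 33.7 and 28.6 at day 28 (log2 0.62 for day 28 minus day 5, SE 0.11, edgeR adjusted p = 0.00803, and 0.0684 without day 28 replicate 1). Thbd, thrombomodulin, which turns thrombin towards protein C, went the other way, with an FPKM of 16.7, 21.1 and 15.1 at day 5, 13.3 and 6.80 at day 14, and 5.20 and 7.89 at day 28. Its days 5 and 28 did not overlap (log2 -1.43, SE 0.29, edgeR adjusted p = 0.0127, and 0.126 without day 28 replicate 1). Tfpi2, a relative of Tfpi, was under 1 FPKM in all libraries and was not called. Of the protease-activated receptors, F2r had a mean of 0.762, 1.09 and 0.653 FPKM and was not called, and F2rl1, the receptor that the tissue factor complex cleaves, had at most 4 fragments in a library.

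Of 7 other fibrinolysis genes, none of the 5 tested was called by edgeR in any comparison. At an unadjusted p under 0.05 there were 1, 1 and 3 of them (days 14 minus 5, 28 minus 14 and 28 minus 5), against 24%, 12.2% and 31.5% of all genes. DESeq2 called 1, Serpine2, between days 5 and 28, and 19.3% of all genes. Plg, the precursor of plasmin, had at most 3 fragments in a library, and Plat, the tissue-type activator, had a mean of 0.595, 1.03 and 1.17 FPKM (edgeR adjusted p = 0.145 for day 28 minus day 5). Serpine2, an inhibitor of thrombin and urokinase, had a mean of 0.614, 1.57 and 1.73 FPKM (edgeR adjusted p = 0.0631 for the same days). Its day 14 libraries were at 2.41 and 0.721. Of 4 genes for proteins that hold plasminogen at the cell surface, S100a10 fell from 747 to 475 FPKM by day 14 (log2 -0.64, SE 0.14, edgeR adjusted p = 0.0356) and was at 538 at day 28 (log2 -0.46 against day 5, SE 0.13, edgeR adjusted p = 0.0491). Eno1, better known as a glycolytic enzyme, went from 433 FPKM at day 5 to 307 at day 28 (log2 -0.48, SE 0.14, edgeR adjusted p = 0.0470). Without any 1 of the day 5 or day 28 libraries, the day 28 calls of both genes were lost (highest edgeR adjusted p = 0.196 for S100a10 and 0.165 for Eno1), and the day 14 call of S100a10 was lost without any 1 of the day 5 libraries or day 14 replicate 2 (highest edgeR adjusted p = 0.117). Anxa2 and Plgrkt were not called.

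Cd47, a receptor for thrombospondin 1, had an FPKM of 164, 175 and 139 at day 5, 140 and 110 at day 14, and 91.1 and 93.5 at day 28. Both day 28 libraries were the lowest of the 7, and the log2 fold change from day 5 to day 28 was -0.77 (SE 0.15, edgeR adjusted p = 0.00963). That call was lost without either of the day 28 libraries (highest edgeR adjusted p = 0.0787). Cd36, the other receptor, had means of 307, 361 and 563 FPKM and a log2 fold change of 0.88 between days 5 and 28 (SE 0.26, edgeR adjusted p = 0.0512). It was called by DESeq2 between these days, as were 19.3% of all genes. Lrp1, which clears urokinase and inhibitor complexes, had means of 247, 180 and 194 FPKM and was not called by edgeR (adjusted p = 0.125 for day 14 and 0.177 for day 28, each against day 5). DESeq2 called it between days 5 and 14, as it did 10.6% of all genes. Vtn, the matrix partner of the urokinase receptor, had at most 6 fragments in a library.

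As a description of shared patterns, each gene was set beside the 7605 genes with a mean of at least 5 FPKM by the Pearson correlation of log2(FPKM + 1) over the 7 libraries, which share 3 time points and so are not 7 separate conditions. The closest to F7 were Olfml3 (0.996) and Alas1 (0.995), to F10 Aatf (0.990) and Lat2 (0.979), and to F3 Supt20 (0.990) and Klhl17 (0.977). The closest to F13a1 were Pvr (0.995) and Skil (0.993), to Plaur Zfp131 (0.996) and Hnrnpa2b1 (0.993), to Serpinb2 Sestd1 and Epb4.1l2 (0.994 each), and to Thbs1 Gm6377 (0.995) and Ccl7 (0.990). Tfpi was closest to Cry1 (0.967) and Ctns (0.964), and Plau to Fbl (0.966) and Depdc7 (0.960). Among the 9 genes themselves, this measure was 0.843 to 0.976 between pairs of F13a1, Plaur, Serpinb2 and Thbs1. F7 with Thbs1 had -0.891, F7 with F10 0.658, and Plau with Tfpi 0.963.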

How the data were processed

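RNASeq libraries of sorted macrophages were sequenced as single-end reads. The authors trimmed reads with cutadapt 1.8, mapped them to mm10 with TopHat2 2.0.13 and quantified genes with Cuffdiff 2.2.1 (versions per the submitters' processing notes). Per the file headers and Cufflinks' usage, the authors deposited for each gene and library the expected counts of fragments, the scaled signal (those counts times a Cuffdiff factor per library), and FPKM. How reads from paralogs were shared and whether strand was used are not given in the sources used here.

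Expected counts, of which 0.947% were not whole (tolerance 1e-06), were rounded and passed to edgeR 4.0.16 under R 4.3.3, with TMM scaling, an expression filter by day, the quasi-likelihood test and p-values adjusted by Benjamini-Hochberg over all genes tested. Day was the only factor. SEs were taken as the log2 fold change divided by the square root of F, and intervals (95%) as the t interval on that SE. The scripts were tested on simulated data. The study's legends count mice per time point, but neither they nor the labels tie each library to its own animal, so p-values measure only the spread between these libraries, part of which may be technical. Detection meant more than 3 fragments in a library, a floor for counting error only. Coordinates are from GENCODE on GRCm38, motifs were searched in the 250 bases before RefSeq starts, and tables and plots were made with Python 3.11.15, pandas 2.3.3, numpy 2.4.6, scipy 1.17.1 and matplotlib 3.10.9.

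The 9 genes, the pathway and cell type lists and the motifs were chosen with earlier results of these data known. Named besides the 9 were listed pathway genes that act on or with them, listed genes with an adjusted p under 0.05, and the 2 most correlated genes of each. One gene that this rule names is not reported here. The alternatives were DESeq2 1.42.0, RLE or Cuffdiff scaling, no expression filter, limma 3.58.1 on log2 FPKM plus 1 or 0.1, fits on 2 time points, a replicate block, each library left out, and a minimum FPKM of 1 or 10.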

Additional observations from a re-analysis of the deposited data

How the results depend on the processing

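With 2 libraries at days 14 and 28, the edgeR fit had 4 residual degrees of freedom, and leaving out 1 library left 3. To these, edgeR's test and the intervals add prior degrees of freedom that are estimated over all genes. Of 405 fold changes of the 9 genes (27 under 15 alternatives each), 324 kept their direction and their side of the threshold, 48 lost the call, 19 gained one and 14 changed sign. Only fold changes called with all 7 libraries could lose a call. Between days 5 and 14, the call was lost under 4 of 15 alternatives for F7, 8 for F13a1, 5 for Plaur and 9 for Serpinb2. Between days 5 and 28 it was lost under 0 for F7, 4 for F10 and 6 each for F13a1, Serpinb2 and Thbs1. RLE and Cuffdiff scaling and a minimum FPKM of 1 or 10 left the counts of calls unchanged. Between days 5 and 14, the 4 calls among the 9 genes became 2 with limma on log2(FPKM + 1) or with only these 2 time points, and 0 to 6 without 1 library. The 3 stringent calls became 1, 1 and 0 to 4. The 2 calls among other pathway genes became 6 with DESeq2, 7 with no expression filter, 0 and 1 with limma on log2(FPKM + 1) and log2(FPKM + 0.1), 1 with 2 time points and 0 to 6 without 1 library. From day 14 to day 28, where all 3 counts were 0, DESeq2 and no expression filter each gave 2, 1 and 1, and leaving out 1 library gave 0 to 4, 0 to 4 and 0 to 3. From day 5 to day 28 the counts of 5, 4 and 9 became 1 to 7, 1 to 4 and 1 to 11 without 1 library. Leaving out 1 library changed signs, over these ranges of log2 fold changes: from day 5 to day 14, F3 -0.75 to 0.20, Tfpi -0.28 to 0.18 and Plau -0.89 to 0.091; from day 14 to day 28, Tfpi -0.28 to 0.17, F13a1 -0.37 to 0.82, Plau -0.011 to 0.97, Serpinb2 -0.43 to 1.85 and Thbs1 -1.20 to 0.71; and between days 5 and 28, Plau -0.090 to 0.23. Tfpi from day 14 to day 28 was 0.10 and 0.13 with limma on log2(FPKM + 1) and log2(FPKM + 0.1). None of these fold changes was called with all 7 libraries. Over all genes, the 614 calls between days 5 and 14 became 1366 with DESeq2 and 1429 of 17299 with no expression filter. With limma on log2(FPKM + 1) and log2(FPKM + 0.1) there were 252 and 277. Fits on these 2 time points gave 315, and leaving out 1 day 5 library gave 52 to 106. From day 14 to day 28, the 8 calls over all genes became 332 with DESeq2 and 390 with no expression filter. From day 5 to day 28, the 1960 became 820 to 967 without 1 day 5 library. The cause of these shifts was not tested.

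Replicate numbers were shared by the days but nothing in the labels ties them to a batch or animal. Deviations of same-numbered libraries from their day means correlated at 0.175 and 0.0449 between days 5 and 14, 0.0843 and 0.0249 between days 5 and 28, and -0.0538 between days 14 and 28, over 7613 genes. With the number as a replicate block, 0 of the 9 genes, 0 stringent and 0 other pathway genes were called between days 5 and 14, and 1, 1 and 3 between days 5 and 28. Over all genes the block left 6, 0 and 735 calls in the 3 comparisons against 614, 8 and 1960 without it. That fit has 2 residual degrees of freedom.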
